A study of Mus musculus with 8 samples.

Results

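The NKR-P1 receptors, their Clec2 ligands and Klrg1 were followed across 3 lymphoid progenitor populations of mouse fetal liver. The group comprised 7 genes, chosen by symbol from the 34745 genes of the deposited table: the receptor genes Klrb1a, Klrb1b, Klrb1c and Klrb1f, the ligand genes Clec2d and Clec2i, and Klrg1. All 7 were in the table once, are annotated as protein-coding and lie on chromosome 6. By the table's coordinates (mm10) the receptor genes are Klrb1a (ENSMUSG00000030361) at chr6:128609227-128623533 on the minus strand, Klrb1c (ENSMUSG00000030325) at chr6:128778485-128789215 on the minus strand, Klrb1b (ENSMUSG00000079298) at chr6:128813706-128826331 on the minus strand and Klrb1f (ENSMUSG00000030154) at chr6:129045901-129057464 on the plus strand. The ligand genes are Clec2i (ENSMUSG00000030365) at chr6:128887588-128898167 on the plus strand and Clec2d (ENSMUSG00000030157) at chr6:129180615-129186534 on the plus strand, and Klrg1 (ENSMUSG00000030114) lies at chr6:122270596-122282882 on the minus strand.

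NKR-P1 receptors are C-type lectin-like molecules of natural killer (NK) cells and innate lymphoid cells (ILCs), encoded by the Klrb1 genes. Their ligands are related lectin-like molecules, called Clr and encoded by the Clec2 genes, which lie among the receptor genes. Some NKR-P1 receptors inhibit and others activate: NKR-P1B, from Klrb1b, is inhibitory and recognises Clr-b, from Clec2d, whereas NKR-P1C, from Klrb1c, activates and is the NK1.1 antigen by which NK cells of B6 mice are identified. Klrg1 encodes an inhibitory receptor for classical cadherins that is found on mature NK cells, effector T cells and subsets of ILC2.

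Fetal livers of wild-type B6 mice, with no treatment in the labels, gave bulk RNA libraries of 3 sorted populations: ILC1/3P (2 libraries), ILCP (3 libraries) and CLP (3 libraries). All 3 gates took live lineage-negative cells that were CD45+, CD127+ and CD25-. ILC1/3P and ILCP were also Flt3- and α4β7+, and differed in 2 molecules: ILC1/3P were PD-1- and CD94+, whereas ILCP were PD-1+ and CD94-. CLP were taken as Flt3+ cells. The sources used here name no lineage antibodies, so whether the gate removed NK1.1-bearing cells, by the product of Klrb1c, is not known.

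Total counts were between 4991939 and 8082476 per library. At these totals a count of 0 allowed up to 0.493 and 0.709 CPM (counts scaled to 1000000 counts of TMM-adjusted library size, where TMM is the trimmed mean of M-values) in the ILC1/3P libraries, up to 0.415 to 0.427 CPM in the ILCP libraries and up to 0.340 to 0.552 CPM in the CLP libraries, for counting error only. Transcripts of Klrd1 and Flt3 followed the sort. Klrd1, which encodes CD94, averaged 1407 CPM in ILC1/3P, 44.7 in ILCP and 52.2 in CLP. Flt3 had no count in ILC1/3P and averaged 459 CPM in CLP. Pdcd1, which encodes PD-1, was highest in ILCP (mean 77.7 CPM) and had no count in CLP. It was also counted in ILC1/3P (mean 13.8 CPM), which were gated as PD-1-. The submitters gave a sort purity above 90%, 1 batch date for all libraries and an age of 6 to 8 weeks, which does not match fetal tissue. Separate animals or litters are not stated for the libraries of a group, so a p-value here reflects the spread of these samples alone, and that spread may be technical.

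The sequences just before the RefSeq transcription start of the 4 receptor genes are shown. The likeness between the genes can thus be set beside their levels in these cells. Each is the 250 bases before the RefSeq transcription start (GRCm38.p6), written 5′ to 3′ on the strand of the gene, with short motif matches in capitals.
Klrb1a, chr6:128622935-128623184, minus strand: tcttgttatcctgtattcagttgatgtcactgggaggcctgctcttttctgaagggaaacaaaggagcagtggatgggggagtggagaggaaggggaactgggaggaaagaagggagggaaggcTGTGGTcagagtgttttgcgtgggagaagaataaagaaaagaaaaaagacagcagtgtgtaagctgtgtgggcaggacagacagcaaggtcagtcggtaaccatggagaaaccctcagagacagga
Klrb1c, chr6:128788642-128788891, minus strand: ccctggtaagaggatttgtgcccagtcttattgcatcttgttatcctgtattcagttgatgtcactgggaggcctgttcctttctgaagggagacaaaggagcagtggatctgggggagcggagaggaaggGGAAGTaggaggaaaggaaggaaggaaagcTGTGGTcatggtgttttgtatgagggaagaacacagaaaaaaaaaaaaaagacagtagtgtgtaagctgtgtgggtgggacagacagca
Klrb1b, chr6:128826316-128826565, minus strand: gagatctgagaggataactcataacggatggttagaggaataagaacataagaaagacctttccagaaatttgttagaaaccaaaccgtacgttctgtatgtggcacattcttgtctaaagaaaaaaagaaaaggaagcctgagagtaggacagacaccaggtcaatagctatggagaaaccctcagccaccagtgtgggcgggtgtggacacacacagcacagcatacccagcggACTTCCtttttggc
Klrb1f, chr6:129045651-129045900, plus strand: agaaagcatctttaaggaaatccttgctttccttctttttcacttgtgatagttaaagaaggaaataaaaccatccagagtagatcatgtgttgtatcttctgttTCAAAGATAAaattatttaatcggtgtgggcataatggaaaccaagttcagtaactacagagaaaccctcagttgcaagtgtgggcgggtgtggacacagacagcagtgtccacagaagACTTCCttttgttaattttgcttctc

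The upstream windows of Klrb1a and Klrb1c were 89.5% identical over 210 aligned bases and shared an unbroken run of 41 bases. Those of Klrb1b and Klrb1f were 72.9% identical over 199 aligned bases and shared a run of 22 bases. Over shorter aligned stretches, Klrb1a and Klrb1b were 74.2% identical (155 bases), Klrb1b and Klrb1c 71.5% (123 bases) and Klrb1a and Klrb1f 64.8% (142 bases), while Klrb1c and Klrb1f had only 8 bases aligned. The pair of Klrb1a and Klrb1c was thus the most alike of the 4 receptor genes, and all 4 genes had their highest mean CPM in ILC1/3P. The windows of Klrb1a and Klrb1c lie inside the genes as annotated, which on the minus strand begin at 128623533 and 128789215. The Klrb1b window overlapped annotated exons by 16 bases and the Klrb1c window by 5 bases.

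Exact matches to 5 short motifs were searched on both strands: TGTGGT for RUNX factors, GGAAGT for ETS factors, AGATAA for GATA factors, CTTTGA for TCF/LEF factors and GTGTGA for T-box factors. Of 32817 RefSeq promoter windows of this length, 14.0% held the RUNX motif, 19.7% the ETS motif, 9.99% the GATA motif, 13.8% the TCF/LEF motif and 12.3% the T-box motif. The RUNX motif was present in Klrb1a at position -126 and in Klrb1c at position -89, counted back from the start. The ETS motif was present in Klrb1c at -119, and on the reverse strand in Klrb1b at -14 and in Klrb1f at -26. Klrb1f also held a GATA match at -141 that overlapped a reverse-strand TCF/LEF match at -145. The T-box letters were in none of the 4 windows. These matches describe the letters only.

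Klrb1b was the most abundant NKR-P1 transcript in ILC1/3P and ILCP and had no count in CLP. It had 939 and 602 CPM in ILC1/3P, 133, 125 and 177 CPM in ILCP, and 0 CPM in each of the 3 CLP libraries. The 3 groups did not overlap. Differences were tested by edgeR's quasi-likelihood test with Benjamini-Hochberg adjustment over 13436 genes. Klrb1b was higher than in CLP both in ILC1/3P (edgeR adjusted p = 8.07e-07) and in ILCP (adjusted p = 2.32e-06). Its pooled level in ILC1/3P was 5607 times a floor of 3 pooled counts in CLP, and that in ILCP was 1015 times this floor. Klrb1b was also higher in ILC1/3P than in ILCP, by 2.41 ± 0.29 on the log2 scale (SE, edgeR adjusted p = 0.00106). The 3 calls held in each fit that left out 1 library. In bulk RNA, here and below, fewer cells of a type and less RNA per cell cannot be told apart.

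Klrb1c was high in ILC1/3P, low but counted in every CLP library, and near the bottom of the detectable range in ILCP. Its levels were 301 and 322 CPM in ILC1/3P, 0.711, 2.35 and 4.22 CPM in ILCP, and 10.2, 9.93 and 8.75 CPM in CLP. The groups did not overlap, and ILCP, not CLP, was lowest. Klrb1c was higher in ILC1/3P than in CLP by 5.01 ± 0.49 (log2 ± SE, edgeR adjusted p = 4.84e-05) and higher in ILC1/3P than in ILCP by 6.99 ± 0.54 (adjusted p = 5.19e-05).

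The lower Klrb1c level in ILCP than in CLP, -1.98 ± 0.46 (log2 ± SE, edgeR adjusted p = 0.0229), rested on 5, 17 and 30 counts in ILCP against 90, 54 and 59 counts in CLP. It also depended on how reads were assigned between overlapping genes. The table lists a same-strand gene, RP24-127M20.8, named Gm44511 in GENCODE M21, that spans Klrb1c and Klrb1b and shares 413 bases with the exons of Klrb1c (13.9% of them) and 599 bases with those of Klrb1b (26.9%). It had 818 and 326 counts in ILC1/3P, 196, 101 and 100 counts in ILCP, and 0, 2 and 0 counts in CLP. That was 14.3 and 12.8% of the Klrb1b counts in ILC1/3P and 20.9, 11.2 and 7.94% in ILCP. In CLP, where Klrb1c was counted in every library, Klrb1b had no count. Which of these genes its reads came from was not tested. With the counts of RP24-127M20.8 added to Klrb1c, an alternative chosen after seeing the data, the direction turned. Klrb1c was then higher in ILCP than in CLP by 1.11 (log2, edgeR adjusted p = 0.0335). As counted, the call was also lost in fits that left out ILCP 2 (adjusted p = 0.0780), CLP 1 (0.0680), CLP 2 (0.0724) or CLP 3 (0.0607), and in the fit on the ILCP and CLP libraries alone (0.212). Adding the same counts to Klrb1b changed no call.

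**Figure D1:**
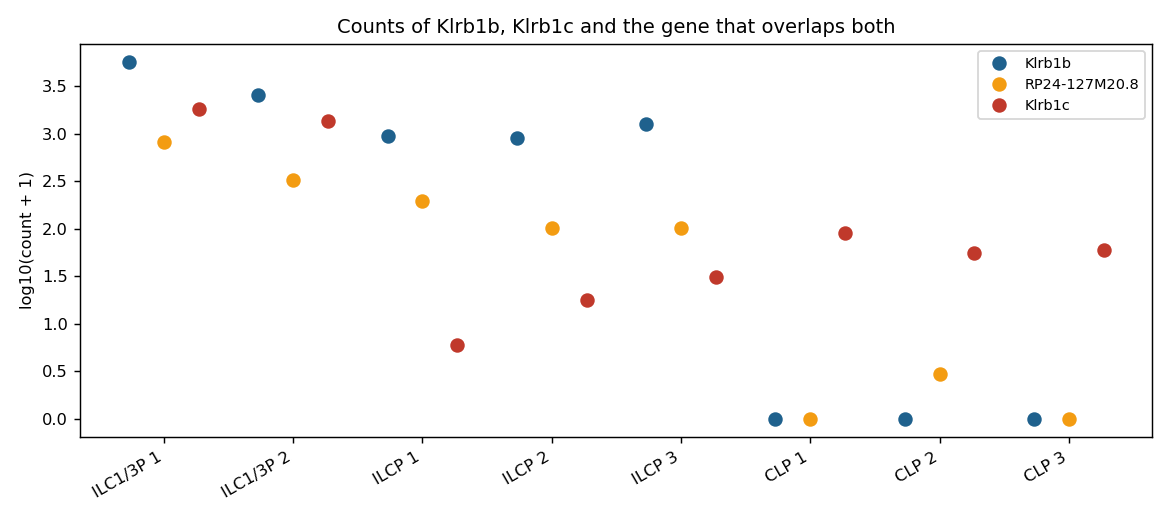
Counts of Klrb1b, RP24-127M20.8 and Klrb1c in each library, as log10(count + 1) on the vertical axis, with the libraries of ILC1/3P, ILCP and CLP along the horizontal axis. In ILCP the overlapping gene (100 to 196 counts) lies above Klrb1c (5 to 30 counts), and in CLP Klrb1c (54 to 90 counts) is the highest of the 3 genes.

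Klrb1a encodes NKR-P1A, which is grouped with the activating members of the family. It had 5.43 and 14.9 CPM (33 and 63 counts) in ILC1/3P and no count in any ILCP or CLP library. Klrb1a was higher in ILC1/3P than in ILCP (edgeR adjusted p = 0.0376) and than in CLP (adjusted p = 0.0280). Its pooled level in ILC1/3P was 66.3 times a floor of 3 pooled counts in ILCP and 65.2 times such a floor in CLP. The gene passed the filter on low counts only through the ILC1/3P libraries. Against ILCP the call was lost without ILC1/3P 1 (adjusted p = 0.0532), ILC1/3P 2 (0.213), ILCP 1 (0.0791), ILCP 2 (0.0594) or ILCP 3 (0.0777). Against CLP it was lost without ILC1/3P 2 (0.176), CLP 1 (0.0712), CLP 2 (0.0627) or CLP 3 (0.0641). Of the 50-base words in the Klrb1a transcripts, 9.92% were shared with another gene, mostly Klrb1c, against 27.2% for Klrb1b and 17.0% for Klrb1c (mostly with Gm44511), and none for Klrb1f and Klrg1.

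Klrb1f, whose product NKR-P1F recognises Clr-g, had at least 18.7 CPM in every library. It had 108 and 66.7 CPM in ILC1/3P, 43.7, 41.0 and 18.7 CPM in ILCP, and 38.5, 43.0 and 77.2 CPM in CLP. ILC1/3P lay above ILCP without overlap, and CLP overlapped both other groups. None of the 3 differences was called by edgeR: 1.34 ± 0.46 for ILC1/3P against ILCP (log2 ± SE, adjusted p = 0.0680), 0.73 ± 0.46 for ILC1/3P against CLP (adjusted p = 0.275) and -0.62 ± 0.42 for ILCP against CLP (adjusted p = 0.490). The first of these passed the threshold with no filter on low counts (adjusted p = 0.0169) and in DESeq2 (adjusted p = 0.0270).

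Clec2i encodes Clr-g, the ligand that NKR-P1F recognises. Its level varied between libraries of the same group: 19.4 and 1.89 CPM in ILC1/3P, 27.2, 14.5 and 54.1 CPM in ILCP, and 4.08, 7.91 and 16.6 CPM in CLP. All 3 groups overlapped. No difference was called by edgeR: -1.57 ± 0.96 for ILC1/3P against ILCP (log2 ± SE, adjusted p = 0.302), 0.17 ± 0.91 for ILC1/3P against CLP (adjusted p = 0.918) and 1.74 ± 0.84 for ILCP against CLP (adjusted p = 0.276). ILC1/3P 1 decided the first of these: without it Clec2i was lower in ILC1/3P than in ILCP by -4.07 (log2, adjusted p = 0.0461), with 1 ILC1/3P library left and assumed to vary like the other groups.

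Clec2d, which encodes the NKR-P1B ligand Clr-b, was near the detection limit throughout. It had 0 and 5 counts in ILC1/3P, 7, 0 and 13 counts in ILCP, and 10, 0 and 33 counts in CLP, or at most 4.89 CPM. Every group had 1 library without a count, and the groups overlapped. The differences were -0.69 ± 2.47 for ILC1/3P against ILCP (log2 ± SE, edgeR adjusted p = 0.897), -1.77 ± 2.56 for ILC1/3P against CLP (adjusted p = 0.667) and -1.08 ± 2.14 for ILCP against CLP (adjusted p = 0.885). Standard errors of this size left any change of a few fold undetectable at this depth. In ILC1/3P and ILCP, transcripts of the inhibitory receptor gene Klrb1b were thus abundant beside a ligand transcript close to 0.

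Klrg1 followed the same order of groups as Klrb1b at a lower level. It had 36.4 and 20.6 CPM in ILC1/3P, 2.13, 3.18 and 7.88 CPM in ILCP, and 0 CPM in each CLP library. No groups overlapped. Klrg1 was higher than in CLP both in ILC1/3P (edgeR adjusted p = 0.000734) and in ILCP (adjusted p = 0.00720). Its pooled level in ILC1/3P was 209 times a floor of 3 pooled counts in CLP, and that in ILCP was 30.8 times this floor. The difference of 2.69 ± 0.92 between ILC1/3P and ILCP (log2 ± SE) was not called by edgeR (adjusted p = 0.0806) and was called by DESeq2 (adjusted p = 0.0264).

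**Figure D2:**
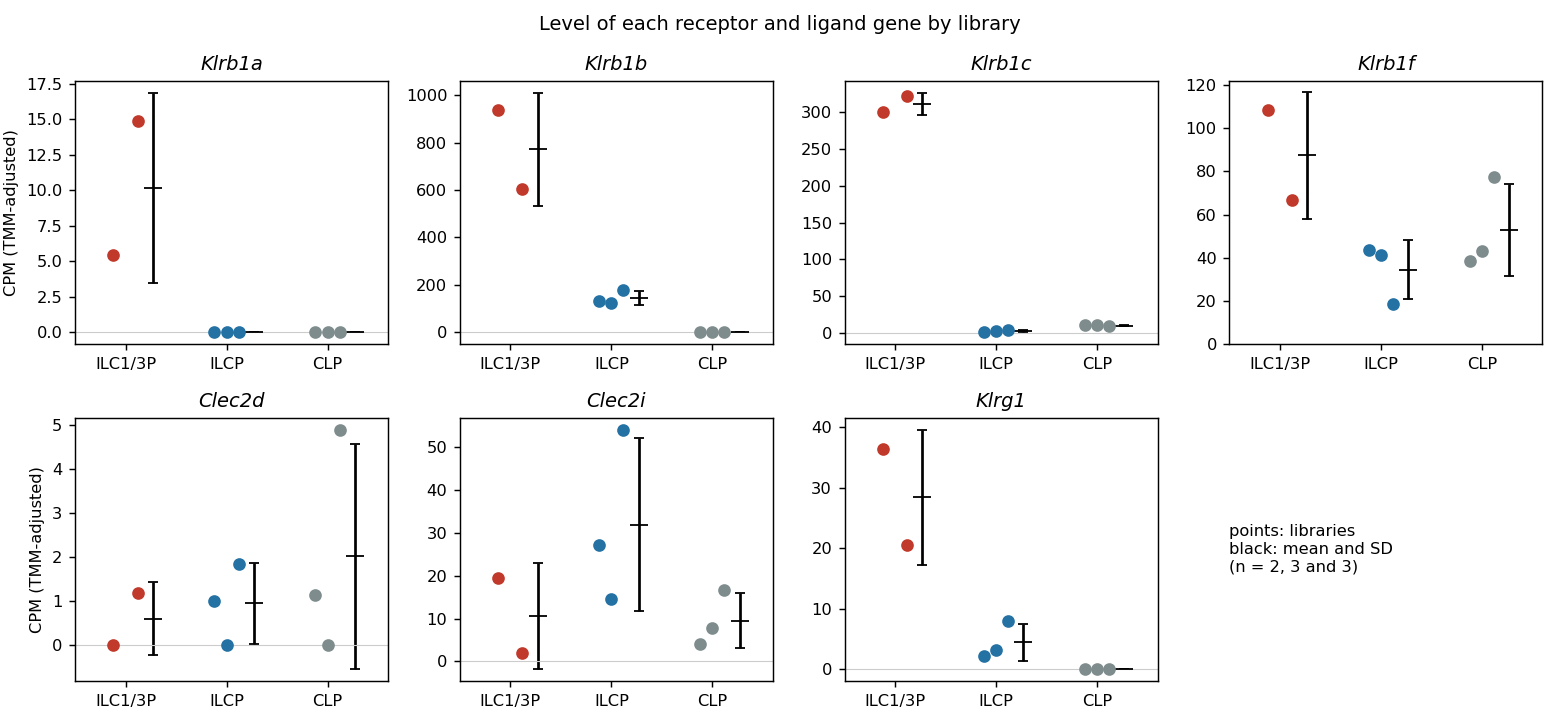
CPM of each of the 7 genes (1 panel per gene, linear axes with different ranges) in ILC1/3P, ILCP and CLP, with libraries as points and the mean and SD beside them in black. Klrb1b and Klrg1 step down over the 3 groups to 0 in CLP, Klrb1a and Klrb1c are high in ILC1/3P, and Klrb1f and Clec2i have counts in every library.

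Marker genes of other cell types moved with the groups. The summed level of 11 NK and ILC1 marker genes was 3463 to 5151 CPM in ILC1/3P (10 of 11 with a count, Prf1 at 0), 64.3 to 169 CPM in ILCP (9 of 11, Itga1 and Xcl1 at 0) and 2.58 to 9.98 CPM in CLP (6 of 11, with Eomes, Gzmb, Ifng, Itga1 and Ncr1 at 0). That of 10 ILC3 and LTi genes was 2185 to 2445 CPM in ILC1/3P (8 of 10 with a count, Ccr6 and Il17a at 0), 1687 to 1992 CPM in ILCP (9 of 10, Il17a at 0) and 257 to 295 CPM in CLP (5 of 10, with Ccr6, Il17a, Il17f, Il22 and Il23r at 0). Both lists thus followed the order of Klrb1b and Klrg1.

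Some of the lists rested on 1 gene. Of 9 T cell genes, which summed to 2359 to 3694 CPM in ILC1/3P (7 of 9 with a count, Cd4 and Cd8b1 at 0), 1373 to 2226 CPM in ILCP (7 of 9, Cd4 and Cd5 at 0) and 7.14 to 28.3 CPM in CLP (5 of 9, with Cd3e, Cd6, Cd8a and Cd8b1 at 0), Cd3g alone made up 94.3% in ILC1/3P and 92.9% in ILCP. Cd3e averaged 1.06 CPM in ILC1/3P and 6.81 CPM in ILCP, and Trac averaged 7.77 CPM in ILC1/3P and 10.6 CPM in ILCP. The 11 ILC2 genes summed to 554 to 676 CPM in ILC1/3P (8 of 11 with a count, Hs3st1, Il5 and Il9r at 0), 765 to 880 CPM in ILCP (10 of 11, Il13 at 0) and 40.6 to 62.6 CPM in CLP (6 of 11, with Il1rl1 and Il2ra among those at 0), and Icos made up 81.8% in ILC1/3P and 82.7% in ILCP. Of 8 mast cell and basophil genes, only Cpa3 and Cma1 had counts, with a sum of 185 to 239 CPM in ILC1/3P and 481 to 632 CPM in ILCP, and Cpa3 alone in CLP (0 to 2.82 CPM).

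Other lists were highest in CLP. The 8 B lineage genes summed to 131 to 173 CPM in ILC1/3P (6 of 8 with a count, Igll1 and Pax5 at 0), 155 to 191 CPM in ILCP (8 of 8) and 2485 to 3305 CPM in CLP (8 of 8). The 8 myeloid genes with values summed to 57.2 to 97.4 CPM in ILC1/3P (6 of 8 with a count, Elane and Fcgr1 at 0), 17.0 to 30.9 CPM in ILCP (5 of 8, Elane, Fcgr1 and Mpo at 0) and 724 to 933 CPM in CLP (8 of 8). The 7 dendritic genes, which include the gate gene Flt3, summed to 89.2 to 136 CPM in ILC1/3P (4 of 7 with a count, Clec9a, Flt3 and Siglech at 0), 24.2 to 41.4 CPM in ILCP (5 of 7, Clec9a and Siglech at 0) and 1315 to 1492 CPM in CLP (6 of 7, Clec9a at 0). In CLP, Ly6d alone made up 60.5% of the dendritic list (mean 853 CPM), and Flt3 averaged 459 CPM. Siglech averaged 67.3 CPM there, Bst2 29.4, Xcr1 1.33 and Zbtb46 0.323. Cd79a made up 62.0% of the B lineage list in CLP, and Mpo 66.9% of the myeloid list. Erythroid, megakaryocyte and platelet, hepatocyte, and endothelial and stromal lists summed to at most 124 CPM in any library. The part of such cells in the levels of Klrb1b, Klrb1c and Klrg1 was not tested.

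Counted over the members, 4 of 7 were called higher and 0 lower in ILC1/3P than in CLP (Klrb1a, Klrb1b, Klrb1c and Klrg1), where 11.8% of all tested genes were called higher and 11.7% lower (23.5% in either direction). In ILC1/3P against ILCP, 3 of 7 were called higher (Klrb1a, Klrb1b and Klrb1c) and 0 lower, against 8.06% and 8.25% of all tested genes (16.3% in either direction). In ILCP against CLP, 2 of 7 were called higher (Klrb1b and Klrg1) and 1 lower (Klrb1c), against 3.91% and 2.87% (6.79% in either direction). None of the 7 was lower in ILC1/3P in either comparison at an unadjusted p under 0.05 or in DESeq2. All 7 passed the filter on low counts, Klrb1a through the ILC1/3P libraries only and Klrb1b and Klrg1 through the ILC1/3P and ILCP libraries only, so these counts describe the members and are not a test of the group. The ILC1/3P libraries had lower TMM scaling factors (0.753 and 0.671) than the other libraries (1.05 to 1.23). With scaling to library size alone the calls of all genes shifted to 946 higher and 2807 lower in ILC1/3P against CLP, against 1592 higher and 1571 lower with TMM. In ILC1/3P against ILCP they shifted to 474 higher and 2141 lower, against 1083 higher and 1109 lower. The median log2 difference of all tested genes was then -0.93 against CLP and -0.86 against ILCP, where TMM gave -0.25 and -0.23.

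Between genes, levels were compared as CPM per kilobase of annotated exon (GENCODE M21). In ILC1/3P the order was Klrb1b (346 ± 107, SD, n = 2), Klrb1c (105 ± 5.05), Klrb1f (43.2 ± 14.5), Klrg1 (20.1 ± 7.90), Klrb1a (6.37 ± 4.20), Clec2i (3.42 ± 3.98) and Clec2d (0.487 ± 0.689). The first 5 were separated from each other in both libraries, while the ranges of Klrb1a and Clec2i, and of Clec2i and Clec2d, overlapped. In ILCP the order was Klrb1b (65.1 ± 12.7, SD, n = 3), Klrb1f (17.0 ± 6.77), Clec2i (10.3 ± 6.49), Klrg1 (3.11 ± 2.17), Klrb1c (0.820 ± 0.594) and Clec2d (0.776 ± 0.755). The range of Klrb1b did not overlap that of the next gene, and that of Klrg1 (1.51 to 5.58) lay just above that of Klrb1c (0.240 to 1.43), while the other neighbours in this order overlapped. In CLP the order was Klrb1f (26.1 ± 10.4, SD, n = 3), Klrb1c (3.25 ± 0.262), Clec2i (3.06 ± 2.06) and Clec2d (1.66 ± 2.11), with Klrb1f apart from the other genes, whose ranges overlapped.

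Klrb1b led the NKR-P1 family in ILC1/3P and ILCP, and Klrb1f led it in CLP. The summed FPKM, the authors' value scaled for gene length and library size, of Klrb1a, Klrb1b, Klrb1c, Klrb1f and Klrb1, another gene of the family, was 204 ± 58.2 in ILC1/3P (SD, n = 2), 53.3 ± 6.72 in ILCP (n = 3) and 22.0 ± 6.49 in CLP (n = 3). These FPKM are scaled to the table totals. On TMM-scaled CPM per kilobase of exon the sums were 507 ± 110 in ILC1/3P, 85.2 ± 7.97 in ILCP and 29.7 ± 10.0 in CLP, so the mean in ILC1/3P was 17.1 times that in CLP, against 9.25 times by FPKM. Klrb1b made up 63.5 ± 6.72% of it in ILC1/3P, 71.1 ± 9.41% in ILCP and 0% in CLP. Klrb1c made up 23.1 ± 5.86% in ILC1/3P, 1.03 ± 0.700% in ILCP and 11.0 ± 3.92% in CLP, the ILCP share resting on 5, 17 and 30 counts. Klrb1f made up 9.98 ± 1.34% in ILC1/3P, 24.0 ± 10.5% in ILCP and 87.7 ± 5.06% in CLP. The transcripts of the family in CLP were thus mostly those of Klrb1f. The authors' FPKM rest on gene lengths above the exon length for genes with several transcripts (4226 against 2228 bases for Klrb1b). Recomputed on the exon length, the Klrb1b share was 67.5 ± 6.47% in ILC1/3P and 76.1 ± 8.38% in ILCP, and the Klrb1f share in CLP was 87.1 ± 5.01%.

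The balance of the inhibitory Klrb1b to the activating Klrb1c was lower in each ILC1/3P library than in each ILCP library. The FPKM ratio of Klrb1b to Klrb1c was 3.60 and 2.16 in the ILC1/3P libraries and 216, 61.2 and 48.4 in the ILCP libraries. The mean log2 ratio was lower in ILC1/3P by -4.95, but 2 against 3 libraries cannot give a two-sided exact permutation p below 0.2, the value reached (0.25 adjusted over 5 ratio comparisons). The size of this difference depended on the gene that overlaps both Klrb1b and Klrb1c. With its counts added to Klrb1c, the ratio of Klrb1b to Klrb1c counts was 2.16 and 1.51 in ILC1/3P and 4.66, 7.64 and 9.68 in ILCP, where the counts as deposited gave 3.12 and 1.87 in ILC1/3P and 187, 53.1 and 42.0 in ILCP. The groups still did not overlap, and the difference in mean log2 ratio was -1.96 (exact permutation p = 0.2, the smallest possible). Klrb1b to Klrb1f was 6.25 and 6.51 in ILC1/3P and 2.20, 2.19 and 6.82 in ILCP, with overlap (exact permutation p = 0.6). Klrb1c to Klrb1f was 1.74 and 3.02 in ILC1/3P, 0.0102, 0.0358 and 0.141 in ILCP, and 0.165, 0.144 and 0.0708 in CLP. The ILC1/3P ratios lay above all others (exact permutation p = 0.2 against either group, the smallest possible), and those of ILCP and CLP overlapped (mean log2 difference -1.68, exact permutation p = 0.2, smallest possible 0.1). The order of ILCP and CLP in this ratio turned when the overlapping gene's counts were added to Klrb1c. The ratio of Klrb1c to Klrb1f counts was then 0.655, 0.397 and 0.977 in ILCP and 0.265, 0.239 and 0.113 in CLP, without overlap and with a mean log2 difference of 1.72 (exact permutation p = 0.1, the smallest possible). The ILC1/3P ratios, 4.02 and 5.99, still lay above all others.

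**Figure D3:**
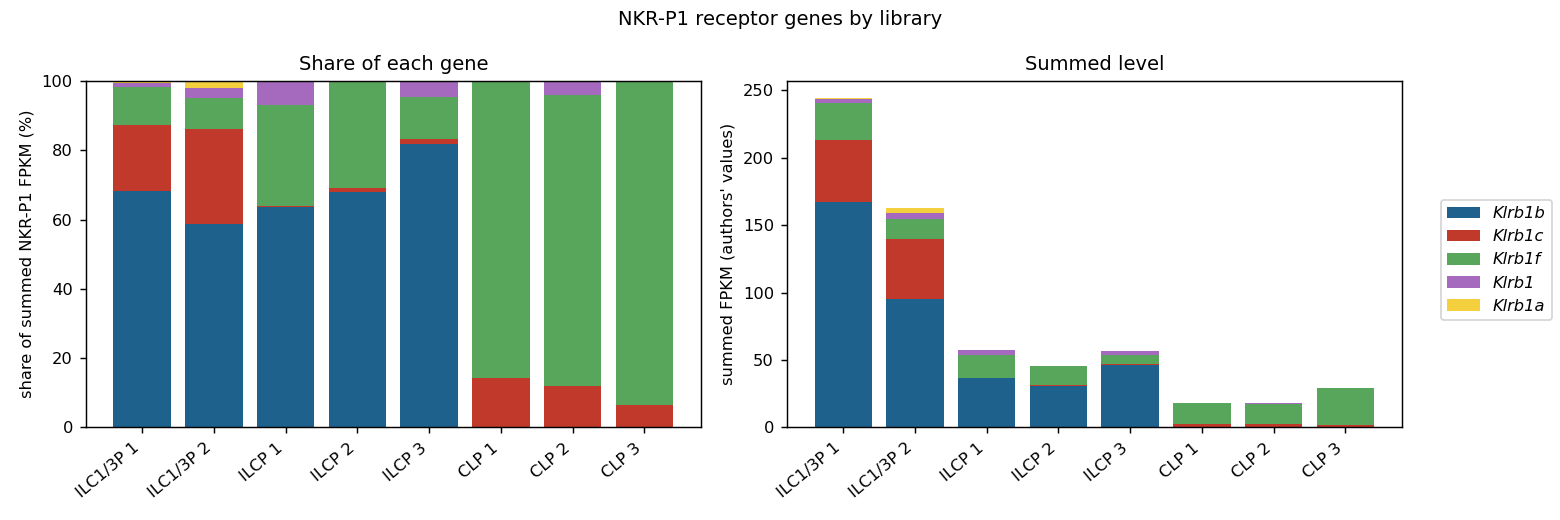
Share of each NKR-P1 gene in the summed FPKM of the family (left, percent) and the summed FPKM itself (right) per library, for ILC1/3P, ILCP and CLP. Klrb1b is the widest band in the ILC1/3P and ILCP libraries (58.8 to 81.7%), Klrb1c is visible mainly in ILC1/3P, and Klrb1f fills most of the CLP bars (83.8 to 93.4%).

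Further genes of the family, from a list of 9 other NKR-P1 and Clec2 relatives, were mostly at or near 0. Clec2e, Clec2g, Clec2h and Clec2j had no count in any library, and only Klrb1, Clec2f and Cd69 passed the filter. Klrb1 had 6.58 and 11.3 CPM in ILC1/3P, 5.55, 0 and 3.80 CPM in ILCP, and 0, 1.10 and 0 CPM in CLP, and was not called in any comparison (edgeR adjusted p = 0.638 for ILC1/3P against ILCP, 0.133 for ILC1/3P against CLP and 0.431 for ILCP against CLP). Clec2f, annotated as a transcribed pseudogene, had counts in CLP only (2.28 ± 1.18 CPM) and was not called (edgeR adjusted p = 0.147 for ILC1/3P and 0.155 for ILCP, each against CLP). Cd69, a lectin-like activation antigen that retains lymphocytes in tissue, averaged 3288 ± 218 CPM in ILC1/3P, 391 ± 110 in ILCP and 1723 ± 417 in CLP. It was higher in ILC1/3P than in ILCP by 3.07 ± 0.30 (log2 ± SE, edgeR adjusted p = 0.000190) and lower in ILCP than in CLP by -2.14 ± 0.28 (adjusted p = 0.000481). Its higher level in ILC1/3P than in CLP (0.93 ± 0.29, adjusted p = 0.0378) was lost with scaling to library size alone (0.425) and without ILC1/3P 1 (0.128), ILC1/3P 2 (0.0857), ILCP 3 (0.0652), CLP 1 (0.0923), CLP 2 (0.0669) or CLP 3 (0.0627). Of the cadherins that Klrg1 recognises, Cdh1 and Cdh4 had no count and Cdh2 had counts in 2 ILCP libraries only, so none was tested.

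Receptor and ligand genes lie interleaved in an interval of 577 kb that runs from Klrb1a to Clec2d and holds 26 genes of the table, 6 of them members. Of the 26 genes, 15 were tested and 8 had no count in any library. Neighbouring genes differed: Clec2i, between Klrb1b and Klrb1f, was not called in any comparison. BC035044 overlaps the span of Clec2i on the opposite strand, with no shared exon bases in GENCODE M21. It was highest in CLP, where Klrb1b had no count. BC035044 averaged 250 ± 21.3 CPM in ILC1/3P, 70.0 ± 1.35 in ILCP and 854 ± 182 in CLP. It was lower than in CLP by -1.77 ± 0.26 in ILC1/3P (log2 ± SE, edgeR adjusted p = 0.000569) and by -3.61 ± 0.24 in ILCP (adjusted p = 4.35e-06). BC064078, annotated as a transcribed pseudogene, averaged 17.2 ± 8.07 CPM in ILC1/3P, 7.95 ± 3.61 in ILCP and 64.2 ± 15.1 in CLP. It was lower in ILCP than in CLP by -3.01 ± 0.49 (adjusted p = 0.00264) and lower in ILC1/3P than in CLP by -1.90 ± 0.55 (adjusted p = 0.0263), the call for ILC1/3P being lost without ILC1/3P 1 (0.133), CLP 2 (0.0719) or CLP 3 (0.0879). Klrg1 lies outside this interval, 6.34 Mb from Klrb1a.

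**Figure D4:**
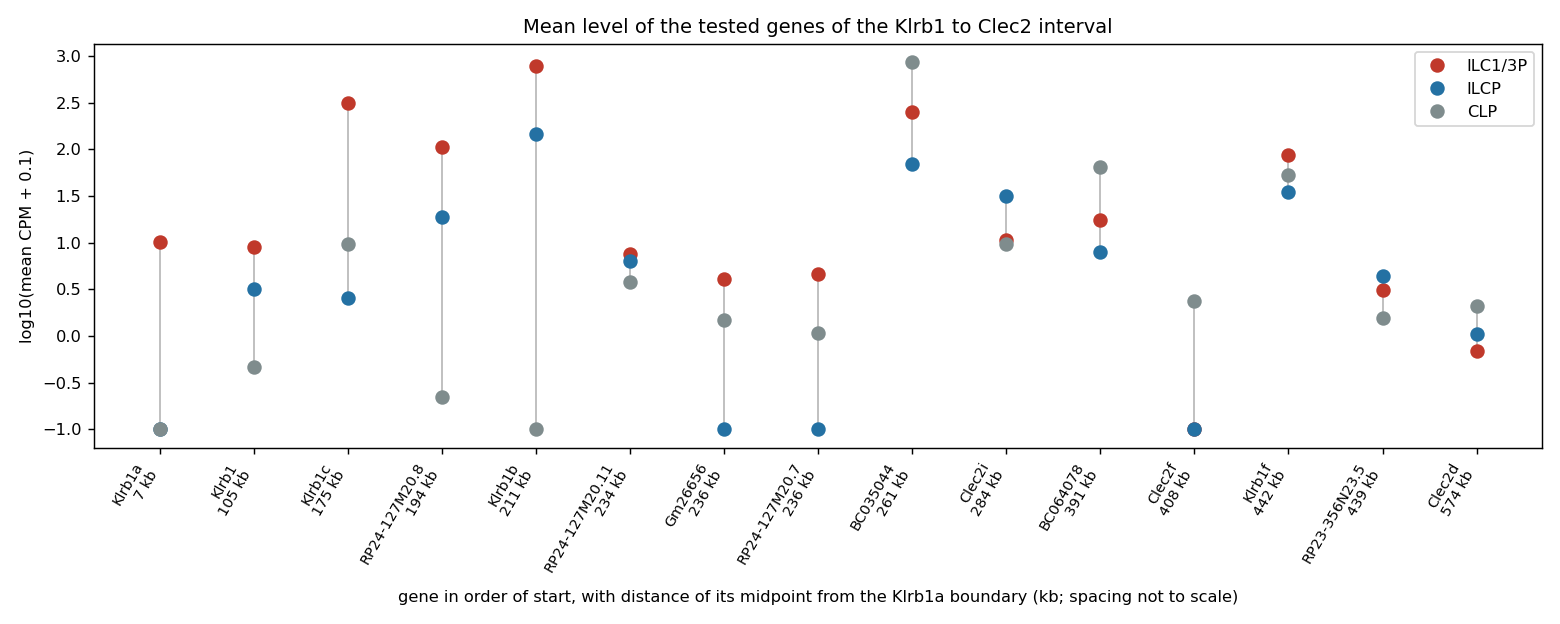
Mean level of the 15 tested genes between Klrb1a and Clec2d, as log10(mean CPM + 0.1) on the vertical axis for ILC1/3P, ILCP and CLP, with genes in order of their start along the horizontal axis (spacing not to scale). Klrb1b and RP24-127M20.8 have CLP at the bottom, whereas BC035044 and BC064078 have CLP at the top.

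Activating NKR-P1 receptors signal through the adaptor FcRγ, from Fcer1g, and downstream kinases, whereas the inhibitory receptors recruit phosphatases. Of 16 adaptor and kinase genes, all tested, 6 were higher and 2 lower in ILC1/3P than in CLP (median log2 0.15, against -0.25 over all tested genes), where 11.8% of all tested genes were higher and 11.7% lower. In ILC1/3P against ILCP, 4 were higher and 3 lower (median -0.69, against -0.23 over all tested genes), against 8.06% and 8.25% of all tested genes. In ILCP against CLP, 5 were higher and 2 lower (median 0.66, against 0.01 over all tested genes), against 3.91% and 2.87% of all tested genes. The list held genes called in each direction in all 3 comparisons, and the 2 lower against CLP in ILC1/3P are close to the share of all genes.

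Fcer1g followed the order of Klrb1b, with 4428 ± 832 CPM in ILC1/3P (SD, n = 2), 701 ± 196 in ILCP (n = 3) and 153 ± 66.4 in CLP (n = 3). It was higher in ILC1/3P than in ILCP by 2.66 ± 0.36 (log2 ± SE, edgeR adjusted p = 0.000938), in ILC1/3P than in CLP by 4.86 ± 0.39 (adjusted p = 1.06e-05) and in ILCP than in CLP by 2.20 ± 0.33 (adjusted p = 0.00166). Hcst and Tyrobp, which encode the adaptors DAP10 and DAP12 of other NK receptors, were also higher in ILC1/3P than in CLP, by 3.83 ± 0.38 (adjusted p = 5.34e-05) and 2.89 ± 0.32 (adjusted p = 0.000112). Both were higher in ILC1/3P than in ILCP too, Hcst by 1.77 ± 0.36 (adjusted p = 0.00699, but 0.0962 without ILC1/3P 2 and 0.0599 with scaling to library size alone) and Tyrobp by 2.18 ± 0.32 (adjusted p = 0.00135). In ILCP against CLP, Hcst was higher by 2.06 ± 0.34 (adjusted p = 0.00303), and Tyrobp was not called (0.71 ± 0.29, adjusted p = 0.186).

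Zap70 and Syk, related tyrosine kinases that bind phosphorylated receptor tails, moved in opposite directions. Zap70 averaged 29.2 ± 7.54 CPM in ILC1/3P, 20.0 ± 6.53 in ILCP and 2.25 ± 1.82 in CLP. Syk averaged 3.77 ± 1.65 CPM in ILC1/3P, 9.45 ± 3.19 in ILCP and 60.9 ± 17.6 in CLP. Relative to CLP, Zap70 was higher in ILC1/3P by 3.67 ± 0.81 (log2 ± SE, edgeR adjusted p = 0.00652) and Syk was lower by -3.99 ± 0.62 (adjusted p = 0.000810). In ILCP against CLP, Zap70 was higher by 3.13 ± 0.75 (adjusted p = 0.0276) and Syk lower by -2.69 ± 0.48 (adjusted p = 0.00512), the Zap70 call being lost without ILCP 1 (0.0979), ILCP 2 (0.0546), ILCP 3 (0.0595), CLP 1 (0.0948) or CLP 2 (0.0516).

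The scaffold genes Lat and Lcp2 were highest in ILCP. Lcp2, which encodes SLP-76, averaged 63.4 ± 14.5 CPM in ILC1/3P, 399 ± 113 in ILCP and 9.85 ± 8.31 in CLP, and Lat averaged 101 ± 10.8 CPM in ILC1/3P, 201 ± 8.52 in ILCP and 25.4 ± 1.17 in CLP. Both were higher in ILCP than in CLP, Lcp2 by 5.36 ± 0.59 (log2 ± SE, edgeR adjusted p = 0.000146) and Lat by 2.98 ± 0.24 (adjusted p = 1.69e-05). Both were also higher in ILC1/3P than in CLP, with adjusted p-values of 0.00474 for Lcp2 and 0.000207 for Lat. Both were lower in ILC1/3P than in ILCP, Lcp2 by -2.65 ± 0.60 (adjusted p = 0.0119, and 0.0916 without ILC1/3P 2) and Lat by -0.99 ± 0.26 (adjusted p = 0.0224, lost without ILC1/3P 2, at 0.122, ILCP 1, at 0.0670, or ILCP 3, at 0.0671).

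The other called genes of this list were Plcg2, Lat2 and Lck. Plcg2, a phospholipase that acts downstream of Syk, was lower in ILCP than in CLP by -1.93 ± 0.31 (log2 ± SE, edgeR adjusted p = 0.00231), with 75.0 and 79.9 CPM in ILC1/3P, 23.6, 38.6 and 43.1 CPM in ILCP and 162, 108 and 131 CPM in CLP. Its higher level in ILC1/3P than in ILCP (1.14 ± 0.33, adjusted p = 0.0371) was lost in each fit that left out a library except CLP 1 (0.0505 to 0.113), in the fit on those groups alone (0.0865) and with scaling to library size alone (0.303). Lat2, a scaffold related to Lat, was lower in ILC1/3P than in CLP by -1.16 ± 0.37 (adjusted p = 0.0416), a call lost without ILC1/3P 1 (0.0811), ILC1/3P 2 (0.176), ILCP 3 (0.0616), CLP 1 (0.0848) or CLP 3 (0.132). Lck, a kinase that phosphorylates receptor tails, was lower in ILC1/3P than in ILCP by -1.68 ± 0.49 (adjusted p = 0.0371), a call lost without ILC1/3P 2 (0.216), ILCP 1 (0.117), ILCP 3 (0.0991) or CLP 3 (0.0604) and in the fit on those groups alone (0.0559).

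Of 6 genes of inhibitory signalling, all tested, ILC1/3P had 2 below CLP, where 11.7% of all tested genes were lower, and the median log2 difference was -0.17, against -0.25 over all tested genes. In ILCP, 1 was lower than in CLP, against 2.87% of all tested genes, with a median of -0.02, against 0.01 over all tested genes. None was called higher by edgeR or DESeq2 in any comparison, and none reached an unadjusted p under 0.05 in that direction. Of all tested genes, 11.8% were called higher in ILC1/3P against CLP, 8.06% in ILC1/3P against ILCP and 3.91% in ILCP against CLP, shares at which under 1 of 6 genes would be called. Ptpn6, which encodes the phosphatase SHP-1, averaged 46.2 ± 27.5 CPM in ILC1/3P, 104 ± 17.3 in ILCP and 176 ± 40.1 in CLP, and was lower in ILC1/3P than in CLP by -1.92 ± 0.40 (log2 ± SE, edgeR adjusted p = 0.00498). Inpp5d, which encodes the phosphatase SHIP-1, averaged 29.5 ± 10.8 CPM in ILC1/3P, 31.4 ± 17.2 in ILCP and 118 ± 26.7 in CLP. It was lower in ILC1/3P than in CLP (edgeR adjusted p = 0.0186, lost without ILC1/3P 1, at 0.107, or CLP 1, at 0.0626) and lower in ILCP than in CLP by -1.91 ± 0.46 (log2 ± SE, adjusted p = 0.0265, lost without ILCP 3, at 0.0795, CLP 1, at 0.107, CLP 2, at 0.0548, or CLP 3, at 0.0869). In ILC1/3P against ILCP none of the 6 was called by edgeR (median -0.43), 1 had an unadjusted p under 0.05, and DESeq2 called 1 lower.

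**Figure D5:**
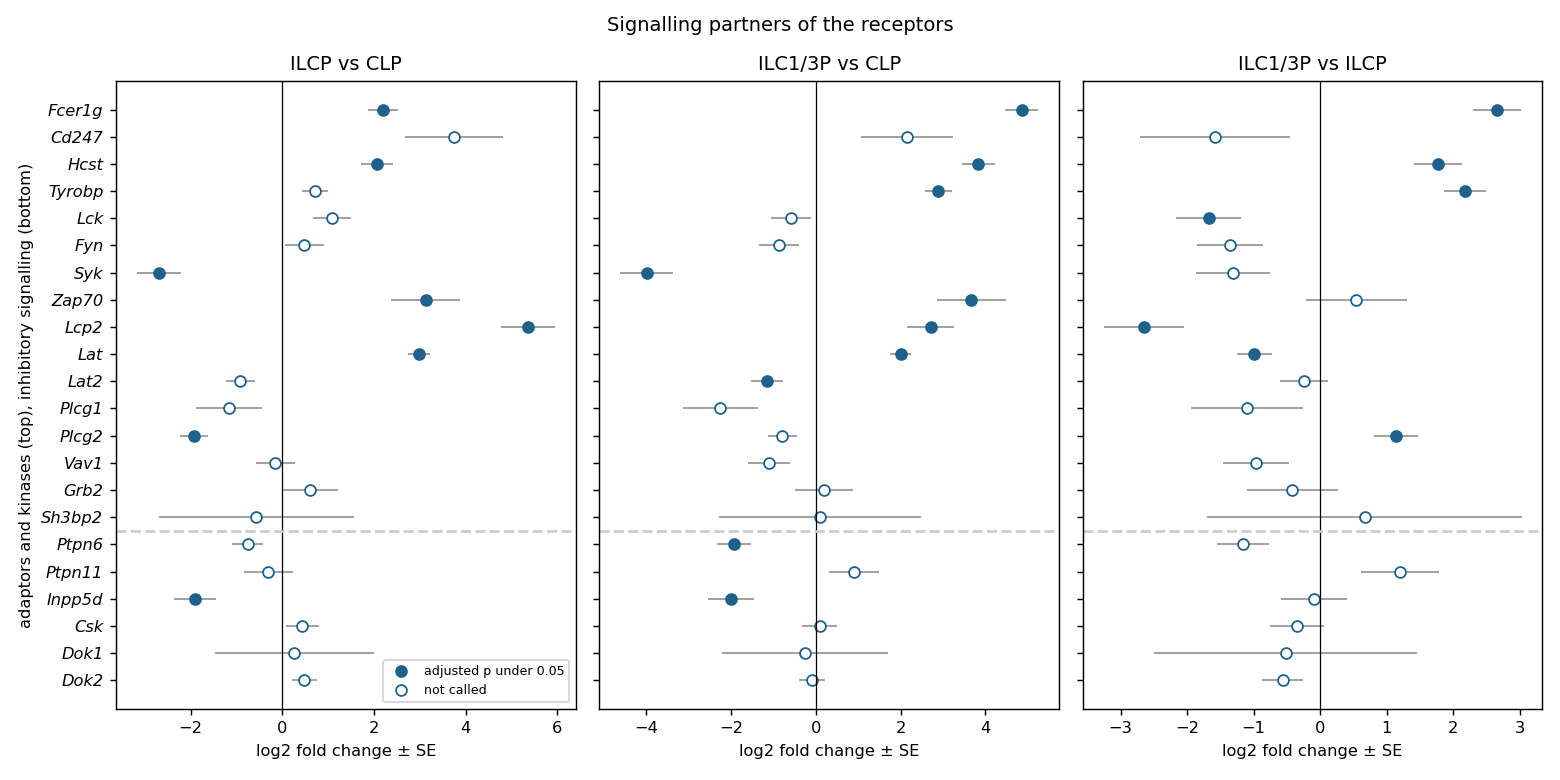
Log2 fold change ± SE of 16 adaptor and kinase genes (above the dashed line) and 6 inhibitory signalling genes (below it) in 3 comparisons, with filled points for an adjusted p under 0.05; the horizontal ranges differ between panels. Fcer1g and Hcst lie right of 0 in all 3 panels, Syk lies left of 0 in all 3, and Lcp2 changes side between ILC1/3P against CLP (2.71) and ILC1/3P against ILCP (-2.65).

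Genes with profiles most like those of the members over the 8 libraries were found among genes with at least 10 CPM in 1 group. Genes with provisional names (such as Gm, Rik, RP or BC), genes named as pseudogenes and antigen receptor segments were left out. Likeness was the root mean square difference of log2 CPM after each gene was centred on its own mean. Nearest to Klrb1b were Serpina3g (0.78), Cd226 (0.79), Ccr8 (0.82), Cxcr6 (0.95) and Tnfrsf9 (1.12). Nearest to Klrb1c were Cited1 (1.07), Car2 (1.11), Klrd1 (1.11), Gzmc (1.12) and Klrb1a (1.21). Klrd1 is part of the sort, since the ILC1/3P gate took CD94+ cells and the ILCP gate CD94- cells. Nearest to Klrg1 were Fam159b (0.72), Ptprz1 (0.76), Actn2 (0.79), Nkg7 (0.81) and Cd7 (0.81). Nearest to Klrb1a, which the naming rule did not cover, were Gbp10 (0.23), Gzmc (0.31), Car2 (0.50), Cdk1 (0.53) and H2-Q5 (0.53), and Gbp10 and Gzmc shared with Klrb1a a mean of 0 CPM in ILCP and CLP. For Klrb1f the nearest were Epb41l4aos (0.26) and Kntc1 (0.31), and for Clec2i Slc18a2 (0.65). For Clec2d the nearest were Galns (0.74) and Dhx8 (0.76), at levels of Clec2d where counting error is large.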

How the data were processed

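Bulk RNA-seq libraries of ILC1/3P (2), ILCP (3) and CLP (3) were grouped and numbered by sample title. Per the labels' protocols, cDNA was made in cell lysate with a SMARTer Ultra Low kit, amplified by PCR and sequenced on a NovaSeq6000. The authors deposited raw counts as whole numbers and their own FPKM for each gene. Per the submitters' processing notes the genome build is mm10. The sources used here name neither the aligner nor the counting program, the annotation release or the strand setting. Molecular identifiers are not mentioned, so floors cover counting error only. Values in the FPKM columns equal the count per table total and a fixed length per gene, which for the members equals or exceeds the exon length in GENCODE M21, where all 7 lie at the same positions.

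Counts were tested with edgeR 4.0.16 (R 4.3.3): filterByExpr left 13436 genes, libraries were scaled by TMM, and a robust quasi-likelihood model with 1 mean per group was fitted to all 8 libraries, with Benjamini-Hochberg adjustment over all genes tested and calls at an adjusted p under 0.05. The biological coefficient of variation was 0.679. CPM are counts scaled to 1000000 counts of TMM-adjusted library size, printed with the mean ± SD of a group. Folds against a group without counts set the pooled level of the other group, as measured, over a floor of 3 counts. They allow for counting error in the group without counts only. Ratios between genes were compared by exact two-sided permutation tests (scipy 1.17.1). The scripts were tested on simulated counts that varied less between libraries than these data. That test checks the code and gives no error rate for the calls here.

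The members, gene lists and naming rule were chosen with earlier results of these data known. The rule covers all 7 members, the called genes of each list with up to 4 others, the 5 nearest profiles of 6 members (not Klrb1a) and the genes between the outermost NKR-P1 and Clec2 genes. Not all genes it covers are named, and for Klrb1f, Clec2i and Clec2d only the nearest profiles are given. The profiles nearest to Klrb1a were added outside the rule. Upstream sequences came from RefSeq (GRCm38.p6), which held a window for 6 of the 7 members. Alternatives were RLE and library-size scaling, no filter, DESeq2 1.42.0, fits on the compared groups only, a replicate block, leaving out each library, and, chosen after seeing the data, adding the overlapping gene's counts to Klrb1b or Klrb1c, also in the ratios. Same-numbered libraries did not deviate together (r between -0.0332 and 0.0867), so the numbers were not taken to pair them.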

Additional observations from a re-analysis of the deposited data

How the results depend on the processing

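Of 277 recomputed member tests, 249 kept their direction and their side of the threshold, among them every test of Klrb1b and every comparison of Klrb1c with ILC1/3P. With library size only, Clec2i in ILC1/3P against CLP turned direction (adjusted p = 0.789), Klrb1a in ILC1/3P against ILCP lost its call (0.0567), and the calls over all genes became 946 higher and 2807 lower for ILC1/3P against CLP and 474 and 2141 for ILC1/3P against ILCP. DESeq2 called Klrb1f (0.0270) and Klrg1 (0.0264) in ILC1/3P against ILCP and gave 869 genes higher and 741 lower in ILCP against CLP, where edgeR gave 526 and 386. No filter on low counts called Klrb1f in ILC1/3P against ILCP (0.0169) and gave 602 genes lower in ILCP against CLP. Klrb1c in ILCP against CLP lost its call in the fit on those libraries only (0.212) and turned direction with the overlapping gene added (0.0335). That addition moved the difference in mean log2 ratio between ILC1/3P and ILCP to -1.96 for Klrb1b to Klrb1c and 2.95 for Klrb1c to Klrb1f, where the values as reported were -4.95 and 5.95, and turned that of Klrb1c to Klrb1f between ILCP and CLP to 1.72. Otherwise the cause was not tested.

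With a replicate block, Klrb1a lost its calls in ILC1/3P against CLP (adjusted p = 0.131) and against ILCP (0.161), and Clec2d turned direction against CLP (0.754) and against ILCP (0.727). Among the signalling genes it ended calls of Inpp5d (0.0572) and Lat2 (0.0639) in ILC1/3P against CLP, Lat (0.0509) and Plcg2 (0.0668) in ILC1/3P against ILCP, and Zap70 (0.0597) in ILCP against CLP. The numbers are not shown to pair the libraries.

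Leaving out each library gave adjusted p-values for ILC1/3P against CLP of 0.0220 to 0.176 for Klrb1a and 0.181 to 0.987 for Clec2i, which turned direction without ILC1/3P 1 or CLP 1. For ILC1/3P against ILCP they were 0.0409 to 0.213 for Klrb1a, 0.0461 to 0.673 for Clec2i and 0.486 to 0.989 for Clec2d, which turned direction without ILC1/3P 1 and did not pass the filter without ILCP 3 or CLP 3, so that 6 fits gave it a test. For ILCP against CLP, Klrb1c had 0.0105 to 0.0780. Genes called were 623 to 1066 higher and 689 to 1233 lower in ILC1/3P against ILCP, lowest without ILC1/3P 2 and ILCP 3, and 347 to 613 higher and 215 to 502 lower in ILCP against CLP, lowest without ILCP 3 and CLP 2. Depth limits what can be said of genes with few counts: Clec2d had at most 33 in a library, Klrb1a at most 63 and Klrb1c in ILCP at most 30.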
